A study of Mus musculus with 6 samples.

Results

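Retinal progenitor genes, Notch pathway genes and neurogenic precursor genes were examined in retinae taken at birth (postnatal day 0) from mice labelled Meg2 knockout and from wild-type mice. The set held 38 genes, listed by name, and each of the 38 was read by exactly 1 transcript cluster, the probe group that covers a transcript, out of 19938 genes with a cluster of their own. Of these, 21 were counted as progenitor members, among them Notch1, Notch2 and Jag1, 16 as neurogenic precursor members, among them Dll1, Dll3 and Hes6, and Dlk1 as neither. None of the 38 genes passed the test of genotype after correction over all clusters. In 30 of the 38, the range between the means of the 3 replicate numbers was larger than the genotype difference, as it was in 85% of all clusters.

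The gene Ptpn9 encodes Meg2, a protein tyrosine phosphatase. The series held 3 samples of Meg2 knockout retina and 3 of wild-type retina, taken at postnatal day 0 from animals of C57BL/6NTac background, and both retinae of an animal were pooled. How the allele was made, and in which cells it is lost, was not stated in the labels. Values are normalised log2 signals. Differences are given as the knockout mean less the wild-type mean, with an SE and a 95% interval from limma.

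The retina at birth holds dividing progenitors beside newly born neurons. Progenitors carry a set of homeobox and Sox transcription factors and keep dividing while Notch receptors, activated by Delta or Jagged ligands on neighbouring cells, switch on the Hes and Hey repressors. Cells that leave this state switch on proneural factors and Delta ligands, stop dividing and become photoreceptors, amacrine cells and other neurons. In whole retina, fewer cells of a type and less RNA per cell cannot be told apart.

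The Hes5 promoter is shown because Hes5 is a textbook target of active Notch, read below beside its receptors. The 250 bases before its RefSeq start lie at chr4:154960673-154960922 on the plus strand (GRCm38.p6), and capitals mark TGGGAA, the core letters bound by the Notch partner RBPJ, on either strand (TTCCCA on the printed strand where the match lies on the other).
Hes5: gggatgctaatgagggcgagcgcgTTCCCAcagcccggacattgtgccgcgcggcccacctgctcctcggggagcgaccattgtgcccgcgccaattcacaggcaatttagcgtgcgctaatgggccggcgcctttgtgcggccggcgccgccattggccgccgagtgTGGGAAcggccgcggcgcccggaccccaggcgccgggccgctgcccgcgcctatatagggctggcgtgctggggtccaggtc

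The matches began 226 and 82 bases before the start. RefSeq promoters were matched for 26 members, with 34 starts in all. The letters TGGGAA stood in 6 of these 34 windows (17.6%) and in 21.6% of the 32851 windows of all genes. Matches in windows of Btg2, Lhx2 and Sox4 are shown with the bases on either side to compare with the Hes5 match nearest its start.
Btg2, chr1:134079316-134079341, minus strand: ccggtgcttgTTCCCAataatgacgt
Lhx2, chr2:38339041-38339066, plus strand: agccccacctTGGGAAagagaggcgc
Sox4, chr13:28953784-28953809, minus strand: tccaagccaaTGGGAAggacggggga

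Of the starts, 1 of Lhx2 held a further match, 9 bases before it. The letters CACNAG, an N-box bound by Hes proteins, stood on either strand in 9 of 34 member windows (26.5%) and in 36.7% of all windows. CATCTG, an E-box read by Neurog and Neurod proteins, stood in 1 member window (2.94%), that of an Otx2 start, and in 14.4% of all. All 3 motifs were searched on both strands. Such matches describe letters and are no evidence of binding.

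The arrays were checked before the members were read. Ptpn9 signal was 9.31, 9.58 and 9.28 with the knockout label against 10.05, 9.93 and 9.94 with the wild-type label, so the groups did not overlap. The difference was -0.58 (SE 0.087, interval -0.78 to -0.38), with an unadjusted p of 0.000108 and an adjusted p of 0.437 in limma. Whether the probes lie in the deleted part of the gene was not stated in the labels. Array medians lay between 7.84 and 7.91. Arrays with the same replicate number resembled each other: both number 1 arrays had high Xist signal (12.58 and 12.73) and low signal of the Y-linked gene Uty (5.22 and 4.71), both number 3 arrays low Xist (6.26 and 6.52) and high Uty (9.53 and 9.34), and both number 2 arrays high Xist (12.54 and 12.55) with Uty between (7.18 and 7.67). The number 2 arrays thus carried Xist and Y-linked signal together, although the labels give 1 animal per array. Of the retinal markers, 5 of 6 photoreceptor, 6 of 6 ganglion cell and 6 of 7 amacrine and horizontal cell genes lay above the median signal of tested clusters, 8.51, as did 4 of 7 astrocyte and Muller glia genes. Of neighbouring tissues, 3 of 10 endothelial and pericyte, 1 of 9 lens and 1 of 7 microglia genes lay above it. So did 1 of 6 pigment epithelium and 1 of 5 ciliary margin and corneal genes. Among these were Kdr of the endothelial list (11.86), Crybb1 of lens (8.88) and Pmel of pigment cells (8.52). The dimmest genes included Rpe65 (5.62) and Emcn (6.32). Kdr was the brightest of its list, with Cldn5 at 10.50 and Cdh5 at 7.51, so its signal was not taken as vessel content.

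Among the members 37 of 38 had a mean above that median, where 50% of all clusters do by construction, and Jag1 was the exception. Brightness depends on the probes, so levels of different genes were not ranked.

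The comparison that the design implies is knockout against wild type at birth. Over the 23410 clusters with a named gene, limma called 0 at an adjusted p under 0.05 (0%), and the adjusted p of every member was 1.0. At an unadjusted p under 0.05 it gave 803 clusters, or 3.43%, and among the members 2 of 38, Jag1 on the higher side (1.69% of clusters) and Id3 on the lower side (1.74%). The arrays of the genotypes did not overlap in 8.43% of all clusters and in 4 of 38 members. These were Jag1, above the wild type (4.08% of clusters), and Notch2, Hes6 and Id3, below it (4.35%). With the replicate number as a block, 0.00427% of clusters and 0 members passed correction, and the lowest adjusted p of a member was 0.514 (limma, Jag1). In that fit 8.81% of clusters had an unadjusted p under 0.05, as did 4 members, with Jag1, Sox9 and Neurod1 on the higher side (4.46%) and Id3 on the lower side (4.36%). Within replicate numbers the knockout array was above its wild-type partner in 3 of 3 pairs for 7 members (16.5% of clusters) and below it for 4 (15.9%), together 11 of 38 against 32.4%. Member counts near these background shares are no result about the set.

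The median difference of the members was 0.013, against 0.0012 over all tested clusters, and 23 of 38 lay above 0, against 50.7% of clusters. The differences ran from -0.15 for Id3 to 0.22 for Sox9. Without both number 2 arrays the differences were 0.25 for Jag1, -0.16 for Id3, -0.14 for Notch2, -0.16 for Hes6, 0.30 for Sox9 and 0.19 for Neurod1, and again 2 members had an unadjusted p under 0.05 in limma. Each of the 38 intervals (95%, limma) lay within 0.5 of 0 on the log2 scale, a 1.41-fold difference, so larger differences lay outside the intervals. The number of arrays, 3 per genotype, limits the precision.

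**Figure D1:**
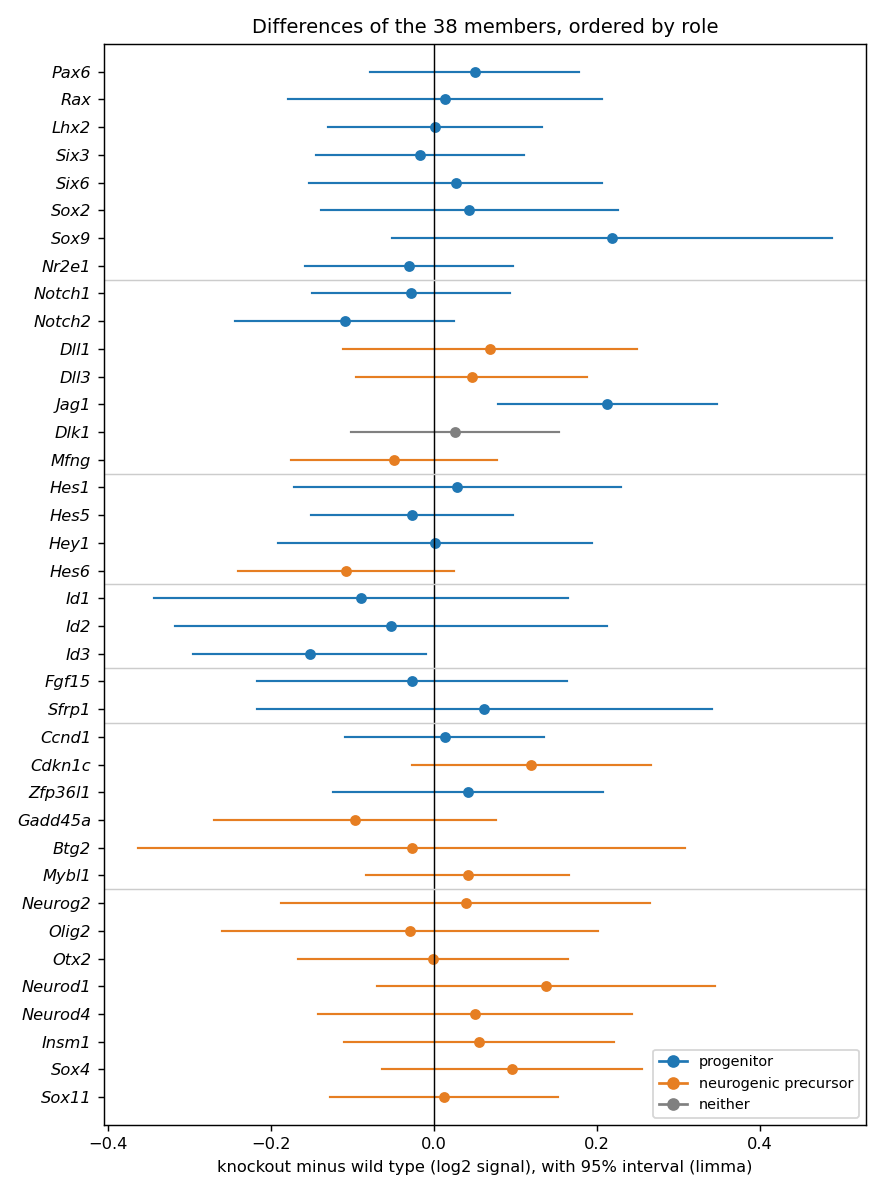
Knockout minus wild-type difference of log2 signal for the 38 members (points) with 95% limma intervals (lines), ordered by role and coloured by division, n = 3 arrays per genotype. The interval of Jag1 lies above 0 and that of Id3 below it, the others include 0, and no member passed correction.

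Among the progenitor transcription factors, 6 of 8 lay above 0, 0 of 8 passed the test, and in 8 of 8 the range between number means was larger than the genotype difference. Sox9, which marks progenitors and later Muller glia, read 11.82, 11.55 and 12.08 on knockout arrays 1, 2 and 3 against 11.63, 11.50 and 11.66 on wild-type arrays 1, 2 and 3. The groups overlapped, because the number 2 knockout lay below the number 1 and number 3 wild types. The knockout array was the higher of its number in 3 of 3 pairs, by 0.19, 0.05 and 0.41. The difference was 0.22 (SE 0.12, interval -0.05 to 0.49), with an unadjusted p of 0.101 in limma and of 0.0213 with the replicate block, and it was 0.089 without the number 3 knockout array and 0.35 without the number 2 knockout array.

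Genes listed as glial markers were set beside the Sox9 difference. Of 7 astrocyte and Muller glia markers, 5 lay above 0 with a median difference of 0.031, and 1 had arrays that did not overlap (8.43% of all clusters), Aqp4, higher in the knockout by 0.12. Pdgfra of astrocyte precursors differed by 0.26 (unadjusted p = 0.0448 in limma, 0.0206 with the block). It was higher in 3 of 3 pairs, by 0.14, 0.11 and 0.52, so the number 3 pair was the largest. Rlbp1 of the same list differed by -0.18, lower in 3 of 3 pairs (unadjusted p = 0.212 in limma, 0.0122 with the block). The genes named here were chosen after their values were seen. The summed linear signal of the 7 markers ran from 12770 to 14722 in the knockout, against 12995 to 13600 in the wild type. It is weighted to Glul (12.74) and Slc1a3 (12.19), the brightest of the list, which differed by 0.055 and 0.031. Gfap (7.26), S100b (6.95) and Aqp4 (6.67), which marks differentiated glia, were dim, so the sum was not taken as glial content. The part of glial cells in the Sox9 difference was not tested.

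The other homeobox and Sox factors had smaller differences. Pax6, a regulator of progenitor competence, read 12.56, 12.63 and 12.61 in the knockout against 12.54, 12.59 and 12.52 in the wild type, a difference of 0.05 (SE 0.057). Rax, needed for the eye field and kept on in progenitors, had a spread of 11.49 to 11.83 in the knockout and of 11.62 to 11.66 in the wild type, and a difference of 0.014 (SE 0.085). Lhx2, a factor that keeps progenitors multipotent, differed by 0.0017 (SE 0.058), or by -0.025 with cyclic loess and -0.0006 with median centring, so its sign depended on the scaling.

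The homeobox repressors Six3 and Six6, both of which promote progenitor growth, differed by -0.017 (SE 0.056) and 0.026 (SE 0.079). Sox2, which sustains progenitor identity, was 11.96, 12.20 and 12.00 in the knockout against 11.91, 12.06 and 12.06 in the wild type. Its difference of 0.043 (SE 0.08) was smaller than the 0.20 between its replicate number means. Nr2e1, also called Tlx, a nuclear receptor that holds stem cells in cycle, differed by -0.031 (SE 0.056), and its arrays all lay between 12.08 and 12.18. None of these values separated the genotypes.

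The receptors come first in the Notch pathway. Notch1, the main receptor of retinal progenitors, read 12.59, 12.56 and 12.57 in the knockout against 12.58, 12.60 and 12.63 in the wild type. Its difference was -0.028 (SE 0.054, interval -0.15 to 0.094). Notch2 read 9.85, 9.91 and 9.87 in the knockout against 9.94, 9.97 and 10.06 in the wild type, so that every knockout array lay below every wild-type array. The Notch2 difference was -0.11 (SE 0.059, interval -0.24 to 0.025; limma, unadjusted p = 0.0975).

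Jag1, a Notch ligand made in retina, lens and vessels, read 8.07, 8.04 and 8.13 in the knockout (mean 8.08 ± 0.049, SD, n = 3) against 7.81, 7.90 and 7.88 in the wild type (7.87 ± 0.049, SD, n = 3). The knockout array was higher in each replicate number, by 0.26, 0.13 and 0.25. The difference was 0.21 (SE 0.059, interval 0.079 to 0.35), a 1.16-fold signal, with an unadjusted p of 0.00601 and an adjusted p of 1.0 in limma. It ranged from 0.19 to 0.23 when each array was left out in turn. Its mean signal, 7.97, lay under the median of tested clusters.

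Markers of vessels, lens and other tissues beside the neural retina are given with it. Of 10 endothelial and pericyte markers, 8 lay above 0 with a median of 0.12, 3 had arrays that did not overlap (4.08% of all clusters on the higher side), and the summed linear signal was 6128 to 7576 in the knockout against 6313 to 7158 in the wild type. Those 3 were Cdh5 (0.54), Emcn (0.50) and Rgs5 (0.50), with unadjusted p-values of 0.00429, 0.00584 and 0.00134 in limma, each with a larger difference than Jag1. The sum is weighted to Kdr, the brightest of the list, which differed by -0.07, so it does not track the dimmer markers. Of 9 lens markers, 8 lay above 0 with a median of 0.10 and a summed signal of 1990 to 2417 against 1849 to 2095. Of 7 microglia markers, 6 lay above 0 with a median of 0.098 (1892 to 2419 against 1818 to 1968). Of 6 pigment epithelium markers, 5 did, with a median of 0.053 (966 to 1355 against 977 to 1130). Of 5 ciliary margin and corneal markers, 2 did, with a median of -0.0053 (5918 to 6663 against 6048 to 6481). That last sum is weighted to Mab21l2, at 12.35 the brightest of its list, which differed by -0.0087. Arrays did not overlap, with the knockout higher, in 1 lens (Cryaa, 0.53), 2 microglia (C1qa, 0.21, and C1qb, 0.47), 1 pigment epithelium (Tyr, 0.19) and 1 ciliary margin marker (Wfdc1, 0.34). Within numbers 1, 2 and 3 the gaps were 0.37, 0.23 and 1.02 for Cdh5 and 0.24, 0.28 and 0.98 for Emcn. Those of Cryaa were 0.10, 0.21 and 1.28, so in these genes the number 3 pair was much the largest. The gaps were more even for Rgs5 (0.51, 0.26 and 0.73), and for Tyr number 2 was the largest (0.31). The marker genes named here were chosen after their values were seen. Their part in the Jag1 difference was not tested.

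**Figure D2:**
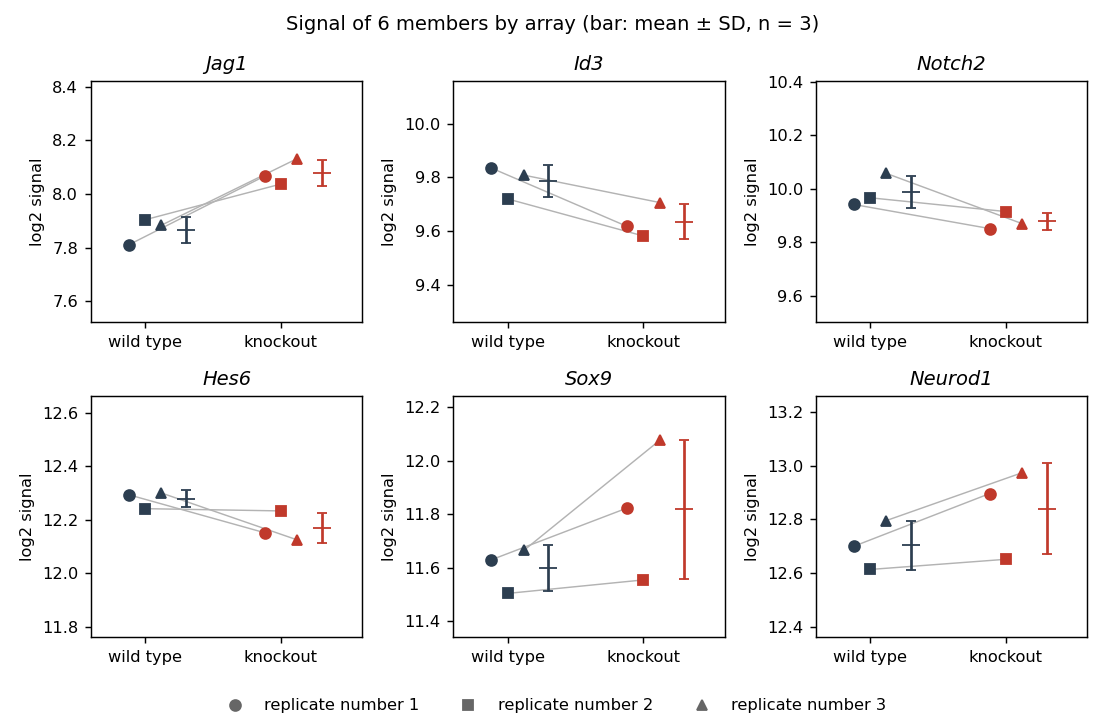
Log2 signal of Jag1, Id3, Notch2, Hes6, Sox9 and Neurod1 on each array, each panel spanning the same range. Symbols give the replicate number, grey lines join arrays of the same number, and bars show the mean and SD of 3 arrays. Jag1 arrays of the knockout sit at 8.04 to 8.13, above all wild-type arrays, while Sox9 and Neurod1 overlap and their number 2 arrays sit lowest.

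The Delta ligands, which neurogenic precursors present to their neighbours, showed no separation. Dll1 read 10.73, 10.86 and 11.03 in the knockout against 10.80, 10.78 and 10.83 in the wild type, with a difference of 0.069 (SE 0.079) that was -0.0092 without the number 3 knockout. Dll3, a Delta protein that acts inside the cell to dampen Notch, was higher in the knockout of each number, by 0.02, 0.03 and 0.088, and differed by 0.046 (SE 0.063). Dlk1, a Delta-like protein without the usual Notch-binding domain, differed by 0.026 (SE 0.056). Mfng, a fringe enzyme that adds sugar to Notch and so changes its response to ligands, differed by -0.049 (SE 0.056).

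The Hes and Hey repressors, which report Notch activity, lay close to 0. Hes5 read 11.56, 11.58 and 11.61 in the knockout against 11.64, 11.58 and 11.62 in the wild type. Its difference was -0.027 (SE 0.055, interval -0.15 to 0.097). Hes1 spread more, with 10.55, 10.86 and 10.87 in the knockout against 10.70, 10.75 and 10.75 in the wild type, for a difference of 0.029 (SE 0.088, interval -0.17 to 0.23). Hey1 had 9.97, 10.19 and 10.14 in the knockout against 9.96, 10.15 and 10.19 in the wild type, and differed by 0.001 (SE 0.085), or -0.0014 with median centring. In Hes1 and Hey1 both number 1 arrays lay below the other 4.

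Hes6, which opposes Hes1 and promotes neuronal differentiation, was the member of this family whose genotypes did not overlap. The knockout arrays read 12.15, 12.23 and 12.13 (mean 12.17 ± 0.056, SD, n = 3), compared with wild-type values of 12.29, 12.24 and 12.30 (12.28 ± 0.032, SD, n = 3). Within numbers the differences were -0.14, -0.0083 and -0.18, smallest for number 2. The difference was -0.11 (SE 0.058, interval -0.24 to 0.024; limma, unadjusted p = 0.0973), and it stayed between -0.14 and -0.086 with each array left out.

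The rest of the Notch pathway was read from 32 genes with a cluster of their own. Of the 32, 0 passed correction in limma, 0 were higher and 1 lower at an unadjusted p under 0.05 (3.43% of all clusters in either direction), and the median difference was 0.02. The lower gene was Aph1b, a subunit of the gamma-secretase that cuts Notch, at 9.71, 9.93 and 9.66 in the knockout against 9.92, 9.97 and 9.96 in the wild type. Its difference was -0.18 (SE 0.077; unadjusted p = 0.0423 in limma), and the groups overlapped at the number 2 knockout. Arrays did not overlap in 1 of the 32 genes (8.43% of all clusters), Psen2, the catalytic subunit of some of these complexes, named for that. Its difference was 0.063 (SE 0.054).

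The Id proteins bind basic helix-loop-helix factors and keep them off DNA, which delays differentiation, and 3 of 3 lay below 0. Id3 read 9.62, 9.58 and 9.71 in the knockout (mean 9.63 ± 0.064, SD, n = 3) against 9.83, 9.72 and 9.81 in the wild type (9.79 ± 0.06, SD, n = 3). All knockout arrays lay below all wild-type arrays, with gaps of -0.22, -0.14 and -0.10 within numbers. The difference was -0.15 (SE 0.063, interval -0.30 to -0.01), with an unadjusted p of 0.0385 and an adjusted p of 1.0 in limma.

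Id1 read 10.27, 10.34 and 10.72 in the knockout against 10.62, 10.45 and 10.54 in the wild type. It was lower in the knockout for numbers 1 and 2 (by -0.34 and -0.11) and higher for number 3 (by 0.18), with a difference of -0.09 (SE 0.11). Id2 read 12.04, 12.49 and 12.18 against 12.14, 12.42 and 12.31. Its difference of -0.053 (SE 0.12) was 0.044 without the number 1 knockout and 0.011 without the number 2 wild type, and both number 2 arrays lay above the other 4.

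Id genes respond to bone morphogenetic proteins. A list of genes of that pathway, with a further Id gene and some basic helix-loop-helix factors, held 23 genes, and all 23 were measured. Of these, 0 passed correction in limma, 2 were higher and 0 lower at an unadjusted p under 0.05 (1.69% and 1.74% of all clusters), and the median difference was 0.041. In all, 17 of 23 lay above 0, and the knockout array was higher in 3 of 3 pairs for 11 of 23 (16.5% of clusters). Bmp4, a ligand made in dorsal retina, read 8.96, 8.40 and 8.48 in the knockout against 8.03, 8.19 and 8.35 in the wild type, a difference of 0.42 (SE 0.14; limma, unadjusted p = 0.017). Within numbers it was 0.92, 0.21 and 0.12, so the number 1 pair was the largest.

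Eng, an endothelial co-receptor, differed by 0.29 (SE 0.12; limma, unadjusted p = 0.043), with the number 2 arrays 0.018 apart. Arrays of 5 of the 23 genes did not overlap (8.43% of all clusters), and apart from Bmp4 these were Smad4, Smad6, Smad9 and, lower in the knockout, Acvr1, with differences of 0.061, 0.049, 0.089 and -0.08. These 4 genes were named after their values were seen. Bmp4 and Eng lay on the other side of 0 from the Id genes. Their mean signals, 8.40 and 7.75, lay under the median of tested clusters, 8.51. Of the endothelial and pericyte markers given above, 8 of 10 also lay above 0, and their part in the Eng difference was not tested.

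The secreted factors overlapped between genotypes. Fgf15, a growth factor of retinal progenitors, read 12.59, 12.40 and 12.68 in the knockout against 12.58, 12.51 and 12.67 in the wild type, a difference of -0.027 (SE 0.084). Sfrp1, a secreted antagonist of Wnt, read 10.24, 10.58 and 10.16 against 10.12, 10.47 and 10.21, a difference of 0.062 (SE 0.12). The number 2 arrays were the lowest for Fgf15 and the highest for Sfrp1.

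The cell cycle members spanned drivers and brakes. Ccnd1, the D-type cyclin of retinal progenitors, had the narrowest wild-type spread, with 13.95, 14.00 and 14.00 in the knockout against 13.97, 13.97 and 13.96 in the wild type. Its difference was 0.013 (SE 0.054, interval -0.11 to 0.14), or -0.03 with cyclic loess. Cdkn1c, which encodes the cycle inhibitor p57Kip2, read 9.48, 9.47 and 9.57 against 9.48, 9.35 and 9.33, a difference of 0.12 (SE 0.065; limma, unadjusted p = 0.0989). The number 1 arrays of Cdkn1c were -0.0015 apart, and those of numbers 2 and 3 were 0.12 and 0.24 apart.

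Btg2, an antiproliferative gene switched on before neurogenic divisions, had the widest spread of the set, with 11.84, 11.57 and 12.24 in the knockout against 11.92, 11.79 and 12.02 in the wild type. Its difference of -0.027 (SE 0.15) took either sign when arrays were left out, from -0.20 to 0.13. Gadd45a, a growth arrest gene, differed by -0.097 (SE 0.076), and the RNA-destabilising gene Zfp36l1 by 0.042 (SE 0.073). Mybl1, a Myb family transcription factor, differed by 0.041 (SE 0.055), with all arrays between 11.61 and 11.70. None of these members separated the genotypes.

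Further cycle genes came from a list of 22, of which 21 were measured. Cdkn1a shared its cluster with another transcript and was not analysed here. In limma 0 passed correction, 1 was higher and 0 lower at an unadjusted p under 0.05 (1.69% and 1.74% of all clusters), and the median difference was 0.023. Ccnd2, a second D-type cyclin, was the higher gene, with 9.59, 9.36 and 9.57 in the knockout against 9.38, 9.32 and 9.31 in the wild type (0.17, SE 0.075; unadjusted p = 0.0478 in limma), and its groups overlapped at the number 2 knockout. Btg1 (0.12, SE 0.063) and the retinoblastoma relative Rbl1 (-0.12, SE 0.058), named after their values were seen, were the 2 of 21 genes whose arrays did not overlap (8.43% of all clusters). Of 9 proliferation markers, 0 lay above 0 (50.7% of clusters), with a median of -0.058. The knockout array was lower in 3 of 3 pairs for 5 of 9 (15.9% of clusters). Arrays did not overlap in 1, Bub1, lower in the knockout by -0.081 (4.35% of clusters) and named after its values were seen. The summed linear signal was 44440 to 47703 in the knockout against 45937 to 47941 in the wild type.

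Among the neurogenic factors 6 of 8 lay above 0 and 0 of 8 passed the test or had arrays that did not overlap. Neurod1, which drives photoreceptor and amacrine differentiation, read 12.90, 12.65 and 12.97 in the knockout against 12.70, 12.61 and 12.80 in the wild type. The knockout was higher in 3 of 3 numbers, by 0.20, 0.038 and 0.18. The difference was 0.14 (SE 0.091, interval -0.07 to 0.35), with an unadjusted p of 0.167 in limma and of 0.036 with the replicate block. Without the number 2 and the number 3 knockout it was 0.23 and 0.071.

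Other photoreceptor genes stood beside Neurod1. Of 6 photoreceptor markers, 5 lay above 0 with a median of 0.053, and 0 of 6 had arrays that did not overlap. The largest difference of these 6 had the other sign, that of Rcvrn, the gene of recoverin. It was -0.23, lower in 3 of 3 pairs (limma, unadjusted p = 0.0656, or 0.00921 with the block). The mean signal of Rcvrn, 8.33, lay under the median of tested clusters, 8.51. Thrb (0.17; limma, unadjusted p = 0.0932, or 0.0199 with the block), Crx (0.12) and Prdm1 (0.052) were higher in 3 of 3 pairs. The number 2 arrays of Prdm1 were only 0.0001 apart. In all, 3 of the 6 were higher in every pair (16.5% of clusters) and 1 was lower (15.9%). These markers were named after their values were seen. The summed linear signal of the 6 was 8721 to 10195 in the knockout against 8276 to 9391 in the wild type. Otx2, which commits precursors to photoreceptor and bipolar fates, read 13.08, 13.06 and 13.29 in the knockout against 13.13, 13.11 and 13.19 in the wild type, a difference of -0.0012 (SE 0.073). The part of photoreceptor content in the Neurod1 difference was not tested.

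Neurog2, a proneural factor of dividing precursors, read 10.37, 10.44 and 10.70 against 10.32, 10.54 and 10.54, a difference of 0.039 (SE 0.099). Olig2, a marker of progenitors near their last divisions, read 10.06, 10.40 and 10.15 against 10.16, 10.39 and 10.15, a difference of -0.029 (SE 0.10). Neurod4, which acts in amacrine and bipolar genesis, differed by 0.051 (SE 0.085). In Neurog2 both number 1 arrays were the lowest, and in Olig2 both number 2 arrays were the highest.

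Insm1, a zinc finger repressor of newly committed precursors, differed by 0.055 (SE 0.073). Sox4 and Sox11, SoxC factors of immature neurons, differed by 0.096 (SE 0.07) and 0.013 (SE 0.062). Sox4 read 11.69, 11.91 and 11.81 in the knockout against 11.69, 11.75 and 11.69 in the wild type, so that the number 1 arrays were level and the numbers 2 and 3 were 0.17 and 0.12 apart. With cyclic loess the Sox11 difference was -0.0064.

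Other progenitor and neurogenic factors were read from 33 genes with a cluster of their own. In limma 0 passed correction and 0 had an unadjusted p under 0.05, and the median difference was 0.0023. The members of this list with the highest signal were Rorb, a nuclear receptor of rod genesis (0.069, SE 0.054), and Meis2, a homeobox factor of progenitors and amacrine cells (-0.036, SE 0.067). Arrays of 4 of the 33 genes did not overlap (8.43% of all clusters). Beside Rorb these were Nfia (0.082), Tox3 (0.054) and, lower in the knockout, Neurod6 (-0.068), named after their values were seen.

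The divisions were then set against each other. The progenitor members had a median difference of 0.0017 with 12 of 21 above 0, or -0.0006 with median centring and -0.024 with cyclic loess, and the neurogenic members had one of 0.04 with 10 of 16 above 0. With each array left out in turn, the neurogenic median ranged from -0.0065, without the number 3 knockout, to 0.049, the progenitor median from -0.023 to 0.03, and that of all members from -0.014 to 0.041. Per array, the mean of the progenitor members relative to all 6 arrays was -0.056, 0.015 and 0.053 in the knockout against -0.035, 0.0019 and 0.02 in the wild type. The mean of the neurogenic members was -0.047, -0.015 and 0.095 in the knockout against -0.024, -0.02 and 0.011 in the wild type. Both divisions were lowest on the number 1 arrays, and the genotypes overlapped in each.

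The progenitor mean less the neurogenic mean was -0.0093, 0.03 and -0.041 in the knockout against -0.011, 0.022 and 0.0094 in the wild type. The genotypes differed by -0.014, with an SD among arrays of 0.036 in the knockout against 0.016 in the wild type (n = 3). Within numbers the gap was 0.0013, 0.0081 and -0.051, so that of the 3 pairs number 3 was farthest from 0. This contrast differed between genotypes by less than the spread between knockout arrays, and ranged from -0.032 to 0.0035 with each array left out.

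**Figure D3:**
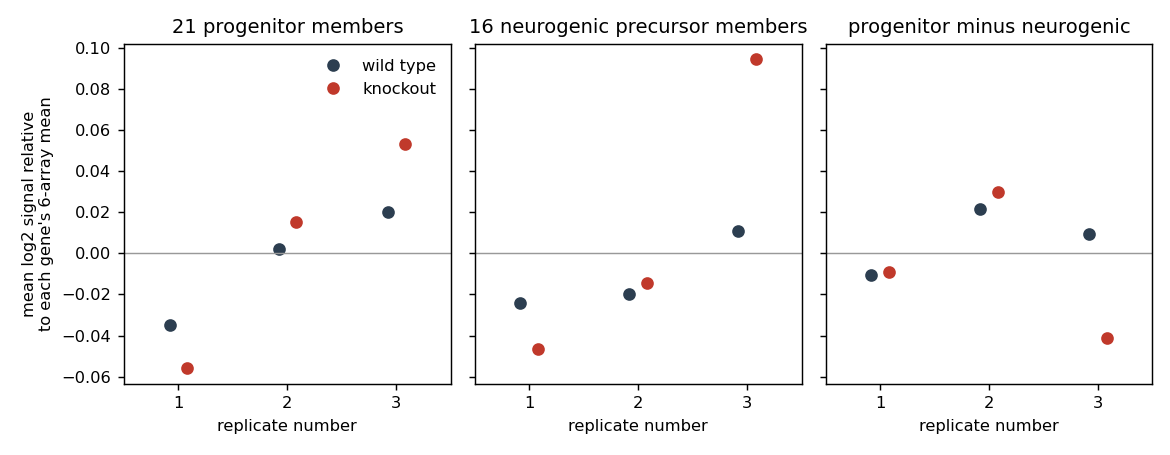
Mean log2 signal of the 21 progenitor members (left) and the 16 neurogenic precursor members (middle), each gene relative to its own mean over 6 arrays, and their difference (right), for each array by replicate number. Arrays of the same number lie near each other except the number 3 knockout, at 0.095 for the neurogenic members.

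Members were also compared across replicate numbers. The range between the means of the 3 numbers exceeded the genotype difference in 30 of 38 members, and in 85% of all tested clusters, so the members did as most clusters do. A range over 3 means of 2 arrays tends to exceed a difference of 2 means of 3 arrays, so this count does not show which source of variation is larger. The median of that range was 0.15 in the members and 0.13 over all clusters. It was largest for Btg2 (0.45), Id2 (0.36), Sfrp1 (0.34), Sox9 (0.34) and Olig2 (0.29). The 8 exceptions were Jag1, Id3, Notch1, Notch2, Hes6, Mfng, Cdkn1c and Mybl1.

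Both number 2 arrays lay above the other 4 in Lhx2, Sox2, Id2, Sfrp1, Olig2 and Insm1, 6 of 38 members against 11.6% of clusters. They lay below the other 4 in Sox9, Dll3, Zfp36l1, Fgf15, Neurod1, Neurod4 and Btg2, 7 of 38 against 13.3%. Together that is 13 of 38 members against 24.9% of clusters. Members that were high on number 2 included progenitor and precursor genes, and so did those that were low.

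Both number 1 arrays lay below the other 4 in 8 members (12.3% of clusters), which were Six6, Sox2, Sox4, Hes1, Hey1, Id2, Neurog2 and Insm1, and above them in Dlk1 (14.2%), together 9 of 38 against 26.6%. Both number 3 arrays lay above the other 4 in 8 members (12.3%), which were Rax, Six6, Nr2e1, Dll3, Fgf15, Otx2, Gadd45a and Btg2, and below them in 0 (7.9%), against 20.2% for either side. The Xist and Uty signals given above differed between the same numbers, and their part in these patterns was not tested.

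**Figure D4:**
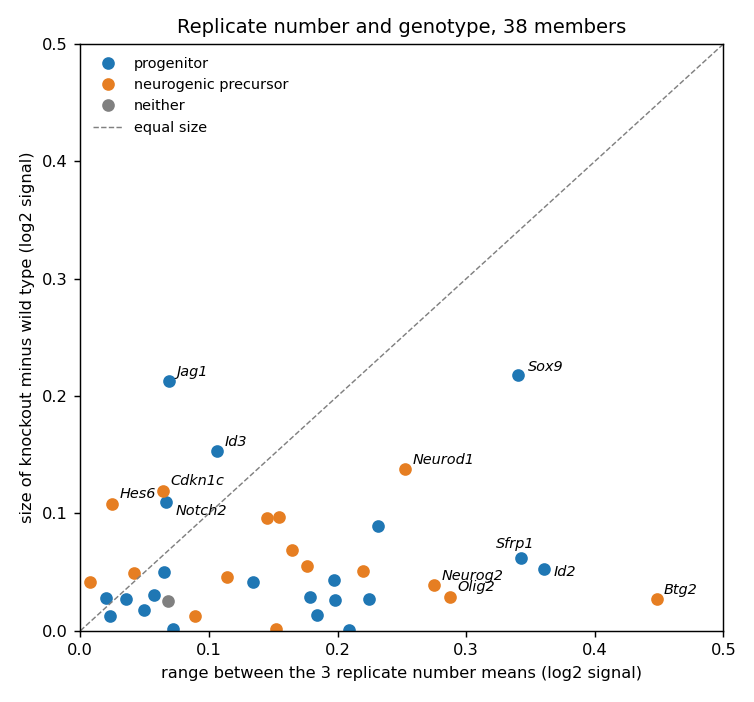
Size of the genotype difference (y axis) against the range between the 3 replicate number means (x axis), both in log2 signal, for each of the 38 members. Points under the dashed line have a range between numbers larger than the genotype difference, as 30 members do, with Btg2 farthest to the right at 0.45 and Jag1 farthest above the line.

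The members lay on 16 chromosomes and none on chromosome 9, which carries Ptpn9. Chromosome 2 held 7 of them, among them Jag1 and Neurod1, and chromosome 12 held 5.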

How the data were processed

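Retinal RNA of 6 samples, 3 per genotype, was hybridised to whole-transcript arrays. The authors deposited log2 signals for each transcript cluster, made with Affymetrix Expression Console and RMA per the submitters' processing notes, which also name Transcriptome Analysis Console. No versions or annotation release were stated in the labels. RMA sets all arrays to a shared distribution, so a shift common to most genes would be removed.

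Of 35557 clusters, the platform annotation gave 1 gene symbol for 21789, several for 1621 and none for 12147. The 23410 named clusters were tested with limma 3.58.1 (lmFit, eBayes) in R 4.3.3, with Benjamini-Hochberg adjustment at 0.05 and no filter on dim signal. The fit was tested on simulated data first. These were drawn independently for each array, so that test did not cover the resemblance of arrays with the same replicate number. A gene was read from its brightest single-symbol cluster. The members, lists and tests were chosen with earlier results of these data known. Named by rule were the 38 members and Ptpn9. In each other pathway or factor list the rule took up to 4 genes with an unadjusted p under 0.05 in limma. Where there was none, it took the 2 with the highest signal. Outside the rule, genes of these lists without overlap between genotypes, and marker genes, were named after their values were seen. Xist and Uty were read to check the arrays, and RBPJ is named only as background to a motif. With 3 arrays on each side, exact permutation p-values stop at 0.1, and none was computed.

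Replicate numbers come from the sample titles, which call the samples biological replicates. Same-numbered arrays shared their deviations from the group means, with correlations of 0.476, 0.485 and 0.455, each above 0.1. Differences within numbers and a fit with the replicate block were therefore added. The main fit has no block, so SEs, intervals and p-values ignore the pairing unless the block is named. With the block the SE was 0.0728 against 0.119 for Sox9, and 0.146 against 0.143 for Bmp4. The block fit is given for the member counts and for some named genes only. Neither scan date nor slide was stated in the labels. Promoter windows are RefSeq's, 250 bases before each start. Some list genes and a promoter window are not reported here. The processing was varied in normalization (centring each array on its median, or cyclic loess), in the variance model (trend, robust), in array weights, in filters on dim signal (at the 25th percentile or at the median), in the rows tested, in the block and by leaving out arrays. Tables and figures were made with Python 3.11.15, pandas 2.3.3 and matplotlib 3.10.9.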

Additional observations from a re-analysis of the deposited data

How the results depend on the processing

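The lowest adjusted p of any member over the alternatives run was 0.514 (limma, Jag1 with the replicate block), and none passed 0.05, including in the fit without both number 2 arrays, which was chosen after seeing the data. With the replicate block 1 of all clusters passed and 4 members had an unadjusted p under 0.05, against 0 and 2. That member count was 3 with cyclic loess, 3 with the variance trend, 1 with array weights and 1 with the median filter, which left out Jag1 as the only member below it. It ranged from 1 to 4 with each array left out, being 4 without the number 3 knockout and 1 without the number 3 wild type, and the cause was not tested. The medians of the members and of both divisions, and the gap between divisions, moved by less than their spread between arrays, though with each array left out they took either sign (-0.0138 to 0.0408 for all members, -0.0231 to 0.0296 for progenitor and -0.0065 to 0.0491 for neurogenic members, -0.0321 to 0.0035 for the gap). A mean over all clusters of a gene was not run, since each member had 1.

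Of the 38 members, 18 kept the sign of their difference under every alternative and 20 did not. With each array left out the differences that changed sign ranged from -0.20 to 0.13 for Btg2, -0.0092 to 0.14 for Dll1, -0.089 to 0.053 for Fgf15, -0.024 to 0.13 for Hes1, -0.0702 to 0.066 for Hey1, -0.18 to 0.044 for Id2, -0.0007 to 0.11 for Insm1, -0.031 to 0.027 for Lhx2, -0.026 to 0.13 for Neurod4, -0.0601 to 0.10 for Neurog2, -0.13 to 0.0497 for Olig2, -0.072 to 0.0395 for Otx2, -0.077 to 0.0901 for Rax, -0.065 to 0.16 for Sfrp1, -0.044 to 0.0001 for Six3, -0.033 to 0.10 for Six6, -0.026 to 0.038 for Sox11, -0.0302 to 0.0895 for Sox2 and -0.0064 to 0.11 for Zfp36l1. Cyclic loess turned Ccnd1 (-0.0296), Lhx2 (-0.025) and Sox11 (-0.0064), median centring turned Hey1 (-0.0014) and Lhx2 (-0.0006), and array weights turned Btg2 (0.029) and Otx2 (0.023). Without both number 2 arrays the signs of Btg2 (0.0699), Fgf15 (0.014), Hes1 (-0.014), Hey1 (-0.018), Lhx2 (-0.022), Otx2 (0.023), Sox11 (-0.014) and Sox2 (-0.0039) turned. The main intervals of these 20 members all include 0.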
